A study of Mus musculus with 10 samples.

Results

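Genes that respond to low oxygen and genes of glycolysis were examined in 10 mouse tumors driven by 2 forms of YAP1, the coactivator of transcription held back by Hippo signaling. The 35 genes were taken by symbol from the 16895 genes of the deposited tables, and all 35 are present and passed the filter on low values. They fall into 18 glycolytic members and 17 other targets of the hypoxia-inducible factors (HIF). The glycolytic members are glucose transporters, enzymes, the PFKFB regulators, the lactate exporter SLC16A3 and the pyruvate dehydrogenase kinase PDK1.

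The tumors grew in newborn Nestin/tv-a mice that were null for Cdkn2a, so every group carries that loss. DF1 chicken fibroblasts transfected with an RCAS virus were injected under the arachnoid membrane of the brain, and the virus infects only cells in which the Nestin promoter drives its receptor tv-a. The labels name DF1 as the cell type of every sample, although the samples are tumors. The virus carried YAP1-MAML2-v2 (n = 7 tumors) or NLS-2SA-YAP1 (n = 3 tumors). Among the YAP1-MAML2-v2 tumors, replicates 1, 3, 4 and 5 are labelled extra cranial, replicates 2 and 6 extra axial and replicate 7 intra ventricular. NLS-2SA-YAP1 replicate 1 is extra axial and replicates 2 and 3 are extra cranial. RNA came from whole frozen tumors, and no normal tissue was analysed here. The labels do not say whether tumors came from separate mice, so p-values measure the spread between these libraries.

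Cells adapt to low oxygen through HIF, a pair of proteins whose alpha subunit is destroyed when oxygen is present and accumulates when it is scarce. HIF binds short DNA elements with the core ACGTG or GCGTG and raises transcription of genes for glucose uptake, glycolysis and lactate export, so that ATP is made with less oxygen. Other targets tune pH, blood vessel tone, mitochondrial turnover, collagen hydroxylation and chromatin. Many glycolytic enzymes are also made at high basal levels in most cells.

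The core elements are shown in the promoters of 4 members chosen from those described below. These are the peptide gene ADM, the kinase PDK1, the collagen hydroxylase subunit P4HA2 and the lactate dehydrogenase LDHA. Each sequence is the 250 bases before a RefSeq start site (GRCm38.p6), 5′ to 3′ on the gene's strand. Capitals mark ACGTG or GCGTG on either strand, so a CACGTG holds ACGTG on both strands.
ADM (chr7:110627407-110627656, plus strand): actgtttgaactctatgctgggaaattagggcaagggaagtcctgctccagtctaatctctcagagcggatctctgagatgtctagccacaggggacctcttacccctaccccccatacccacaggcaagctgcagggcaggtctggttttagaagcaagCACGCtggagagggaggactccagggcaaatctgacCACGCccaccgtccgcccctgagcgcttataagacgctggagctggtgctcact
PDK1 (chr2:71872974-71873223, plus strand): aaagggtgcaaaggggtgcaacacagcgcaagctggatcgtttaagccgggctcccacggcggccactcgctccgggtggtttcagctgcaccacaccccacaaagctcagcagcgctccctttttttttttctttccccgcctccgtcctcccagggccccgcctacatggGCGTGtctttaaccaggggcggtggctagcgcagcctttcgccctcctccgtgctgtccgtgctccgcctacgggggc
P4HA2 (chr11:54100674-54100923, plus strand): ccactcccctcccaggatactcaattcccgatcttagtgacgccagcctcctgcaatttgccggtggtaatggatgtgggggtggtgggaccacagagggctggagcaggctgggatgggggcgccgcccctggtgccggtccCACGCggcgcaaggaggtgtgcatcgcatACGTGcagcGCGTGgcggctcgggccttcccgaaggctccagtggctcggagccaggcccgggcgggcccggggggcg
LDHA (chr7:46845554-46845803, plus strand): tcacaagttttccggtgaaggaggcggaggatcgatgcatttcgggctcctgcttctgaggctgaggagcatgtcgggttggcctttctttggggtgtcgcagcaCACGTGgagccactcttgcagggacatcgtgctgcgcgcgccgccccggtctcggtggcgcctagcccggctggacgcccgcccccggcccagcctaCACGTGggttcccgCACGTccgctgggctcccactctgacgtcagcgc

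RefSeq windows were matched for 31 members (not SLC2A3, BNIP3L, NDRG1 and STC1). ACGTG stood in 17 of the 31 (54.8%), against 24.9% of the 10043 tested genes with one. Either core stood in 27 of 31 (87.1%), against 60.5% of those tested genes. A gene was counted if any of its windows held the core, and some genes have several windows. By window, ACGTG stood in 42.6% of 47 member windows, against 21.1% of the 12912 of tested genes. Either core stood in 72.3% of member windows against 54.4%. LDHA and PDK1 each have a further window, not printed, with 1 core (LDHA) and 0 cores (PDK1), fewer than in the printed window. LDHA is not among the 6 members of smallest edgeR p between constructs. Of those 6, CA12, KDM3A and BNIP3 were not printed. The CA12 window held 0 cores, the KDM3A windows 0, 0 and 1, and the BNIP3 window 5. By set, ACGTG was in 9 of 17 glycolytic members and 8 of 14 other targets. Member windows had a median GC content of 62.8% and those of tested genes 59.8%, and both cores contain CG. None of the 4 printed windows overlaps an annotated exon (GENCODE M21, mm10). Those of LDHA (gene at chr7:46841475-46855627) and P4HA2 (chr11:54100095-54131665) lie inside the annotated gene, since other transcripts start further upstream. Those of ADM (chr7:110627661-110629820) and PDK1 (chr2:71873224-71903858) lie before it. These matches describe the sequence and do not show binding.

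Library totals ran from 28001143 to 44544314, but these are sums of values that do not behave as plain read counts, so depth is unknown. Levels are in CPM (counts scaled to a common library total by TMM). Of the marker lists for other tissues, skeletal muscle genes summed to 116.5 CPM in YAP1-MAML2-v2 replicate 3, 159 CPM in NLS-2SA-YAP1 replicate 2 and 505 CPM in its replicate 3, and to 3.06 to 11.2 CPM in the other 7 libraries. Macrophage and microglia genes summed to 2882 CPM in the intra ventricular library and to 401 to 1364 CPM elsewhere. Meningeal fibroblast genes, markers of the tissue the series title compares these tumors with, summed to 9649 to 28880 CPM in YAP1-MAML2-v2 and to 25460, 33480 and 44860 CPM in NLS-2SA-YAP1 tumors. In bulk tissue, fewer cells of a type and less RNA per cell cannot be told apart.

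Members differed widely in level. Per kilobase of annotated exon, ALDOA, the aldolase of glycolysis, had the highest median over the 10 libraries (186 CPM per kb). LDHA, which turns pyruvate into lactate, followed with 169, TPI1 (triose-phosphate isomerase) with 166, PGK1 (phosphoglycerate kinase) with 158 and NDRG1, a stress-induced growth regulator, with 157 CPM per kb. Their ranges over libraries overlapped widely, from 93.2 to 464 CPM per kb for ALDOA and from 28 to 323 CPM per kb for LDHA, so the order of these 5 genes is not separated. At the other end, the membrane carbonic anhydrases CA12 and CA9 had medians of 1.05 and 0.314 CPM per kb. Among the glycolytic members, the lowest was PFKFB4 with 1.6 CPM per kb.

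**Figure D1:**
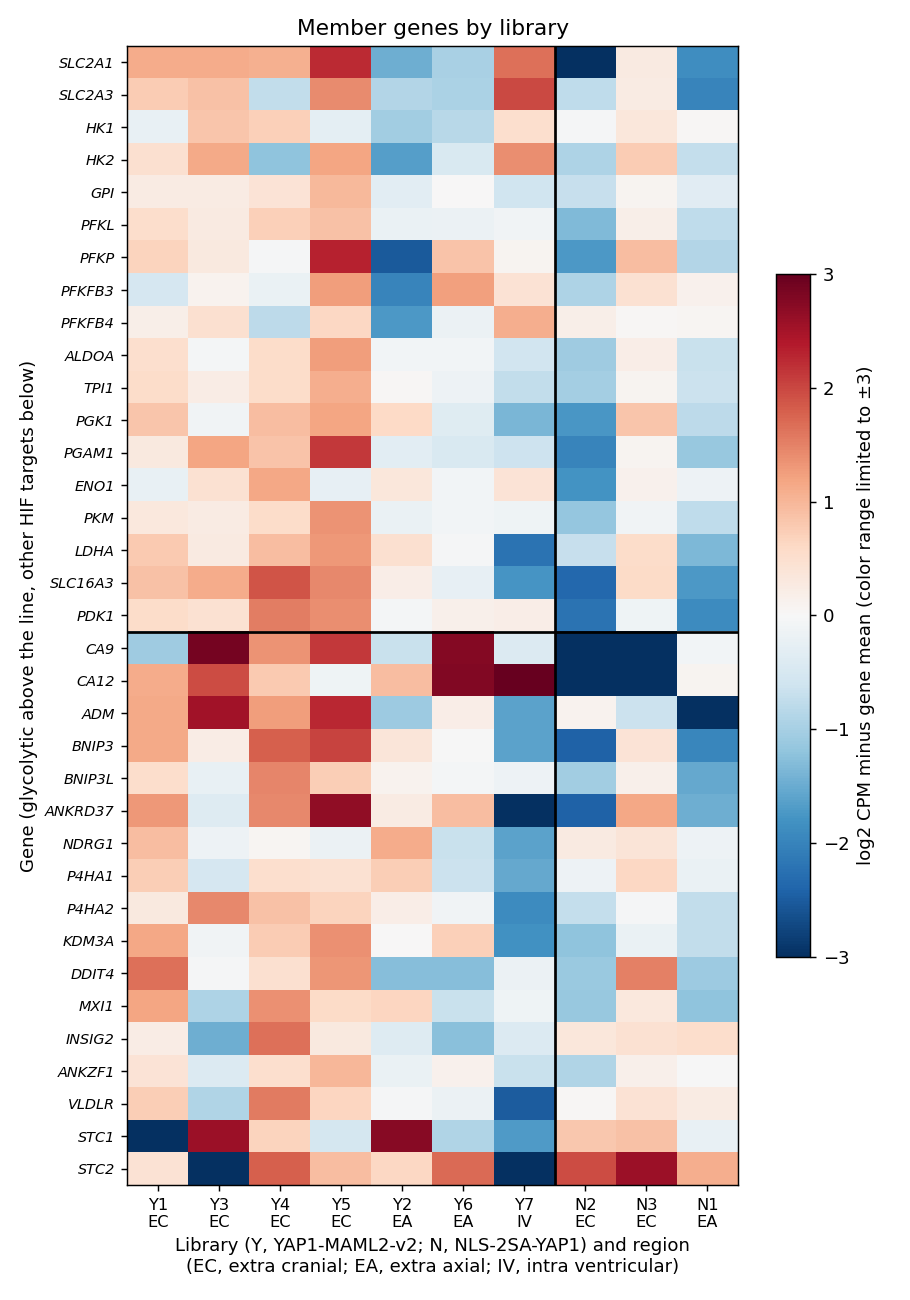
Centred log2 CPM of the 35 members (rows, glycolytic above the line) in the 10 libraries (columns, YAP1-MAML2-v2 left of the line). Color is log2 CPM minus the gene's mean over libraries. Replicate 5 of YAP1-MAML2-v2 (Y5) held the highest value of 15 members and NLS-2SA-YAP1 replicate 2 (N2) the lowest value of 13. The same shares over all genes were not computed.

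Single libraries stood apart within both constructs. Replicate 5 of YAP1-MAML2-v2 had the highest CPM of 15 of 35 members, among them 11 of the 18 glycolytic ones. NLS-2SA-YAP1 replicate 2 had the lowest CPM of 13 members. The shares of all genes highest or lowest in these libraries were not computed, so the counts are not read as particular to the members. Averaged over members on the log2 scale, after each gene was centred on its mean, replicate 5 stood at 1.08 and NLS-2SA-YAP1 replicate 2 at -1.14. NLS-2SA-YAP1 replicate 3 stood at 0.13, inside the YAP1-MAML2-v2 range of -0.63 to 1.08. The group means were -0.60 ± 0.65 (SD, n = 3) for NLS-2SA-YAP1 and 0.26 ± 0.58 (SD, n = 7) for YAP1-MAML2-v2.

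The first comparison asked how the genes differed between the constructs. Members were mostly lower in NLS-2SA-YAP1 tumors: 31 of 35 had a negative log2 fold change (NLS-2SA-YAP1 minus YAP1-MAML2-v2, with region as a term), against 51.6% of the 13707 genes tested. The median was -0.85 for the members and -0.03 for all genes. No member passed edgeR's quasi-likelihood test at a Benjamini-Hochberg adjusted p of 0.05 over all genes, where 2 genes (0.0146%) did. At an unadjusted p under 0.05 there were 14 members, all lower, against 13.1% of all genes (7.61% lower and 5.44% higher). The 14 include CA9 and CA12, whose p rests on deposited values of 1. Without genes at 0 or 1 in one library and over 100 in another, the count was 12, all lower (14.2% of all genes). DESeq2 placed 6 members past the adjusted threshold (ADM, PDK1, CA9, CA12, BNIP3 and KDM3A, all lower), against 5.3% of the genes to which it gave an adjusted p (3.56% lower). Limma-voom with sample quality weights placed 0 members there, against 0.693% of genes (0.212% lower). Members share libraries and were chosen with earlier results known, so these shares are a description.

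Both glucose transporters had negative fold changes that did not pass the test. For SLC2A1, the GLUT1 transporter, NLS-2SA-YAP1 replicates 1, 2 and 3 held 11.8, 4.78 and 51.9 CPM, and YAP1-MAML2-v2 tumors ranged from 15.4 to 203 CPM around a median of 92.5. Replicates 1 and 2 lay below every YAP1-MAML2-v2 library and replicate 3 within their range, with a log2 fold change of -1.56 (SE 0.70, edgeR adjusted p = 0.385). SLC2A3, the GLUT3 transporter, had 18.3, 42.4 and 85.1 CPM, against 37.3 to 282 CPM with a median of 120.6. Its groups overlapped, with a log2 fold change of -0.98 (SE 0.46, edgeR adjusted p = 0.4).

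Of the enzymes of the glycolytic steps and LDHA, 11 of 12 had a negative log2 fold change, with a median of -0.83. PGAM1, phosphoglycerate mutase, had the largest of them, at 33, 18.2 and 75.9 CPM in NLS-2SA-YAP1 against 46.6 to 313 CPM (median 88.4) in the others. Its log2 fold change was -1.48, with an SE of 0.57 (edgeR adjusted p = 0.323). PKM, pyruvate kinase, had 450, 339 and 711 CPM against 668 to 1933 CPM, and only replicate 3 reached into the YAP1-MAML2-v2 range (-1.02, SE 0.42). ALDOA stood at 458, 346 and 840 CPM against 492 to 1722 CPM with a median of 694 (-0.81, SE 0.43). TPI1 had a log2 fold change of -0.85, PFKL (liver phosphofructokinase) -0.85, PGK1 -0.81, ENO1 (enolase) -0.71, PFKP (platelet phosphofructokinase) -0.95 and GPI (glucose phosphate isomerase) -0.55. The hexokinases, which trap glucose in the cell, had -0.25 (HK2) and 0.23 (HK1). PFKFB3 and PFKFB4, whose product activates phosphofructokinase, had -0.35 and 0.23. PFKFB3 had 77.6, 37.3 and 96.7 CPM against 17.9 to 170 CPM. The sign of each of these 4 genes turned when 1 library was left out.

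Genes that handle pyruvate and lactate had fitted differences of -1.06 to -1.91. PDK1, which blocks pyruvate entry into mitochondrial oxidation, measured 6.1, 4.88 and 20.9 CPM across NLS-2SA-YAP1 replicates. The YAP1-MAML2-v2 tumors ranged from 22 to 65.9 CPM with a median of 31.5. It was the only member whose constructs did not overlap, a pattern found in 6.73% of all genes, 3.03% with NLS-2SA-YAP1 lower and 3.71% with it higher. With 1 of 35 members, the pattern was about as frequent among members as among all genes in the lower direction. The fitted difference in log2 was -1.91 (SE 0.51, adjusted p = 0.221 in edgeR and 0.00758 in DESeq2). An exact two-sided permutation test over libraries gave p = 0.00833, the smallest that 120 assignments allow, and 0.199 after Benjamini-Hochberg adjustment over all genes. That smallest value follows from the lack of overlap. The same exact permutation test, which leaves out region, gave 0.0167 for CA12, 0.0833 for BNIP3, 0.108 for ADM, 0.15 for KDM3A and 0.325 for P4HA2. Deposited values of 1 in NLS-2SA-YAP1 replicates 2 and 3 enter the p of CA12, which was 0.251 after Benjamini-Hochberg adjustment over all genes. SLC16A3, which exports lactate, had 5.69, 3.65 and 28.3 CPM against 5.55 to 70.6 CPM (log2 fold change -1.67, SE 0.59). LDHA had 169, 266 and 629 CPM against 92.6 to 1069 CPM (median 601), with a fitted fold change of -1.06 (SE 0.42). In this and every other construct fold change of the fit, the intra ventricular library is set apart by its own term. The ranges and medians given for YAP1-MAML2-v2 tumors include that library.

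**Figure D2:**
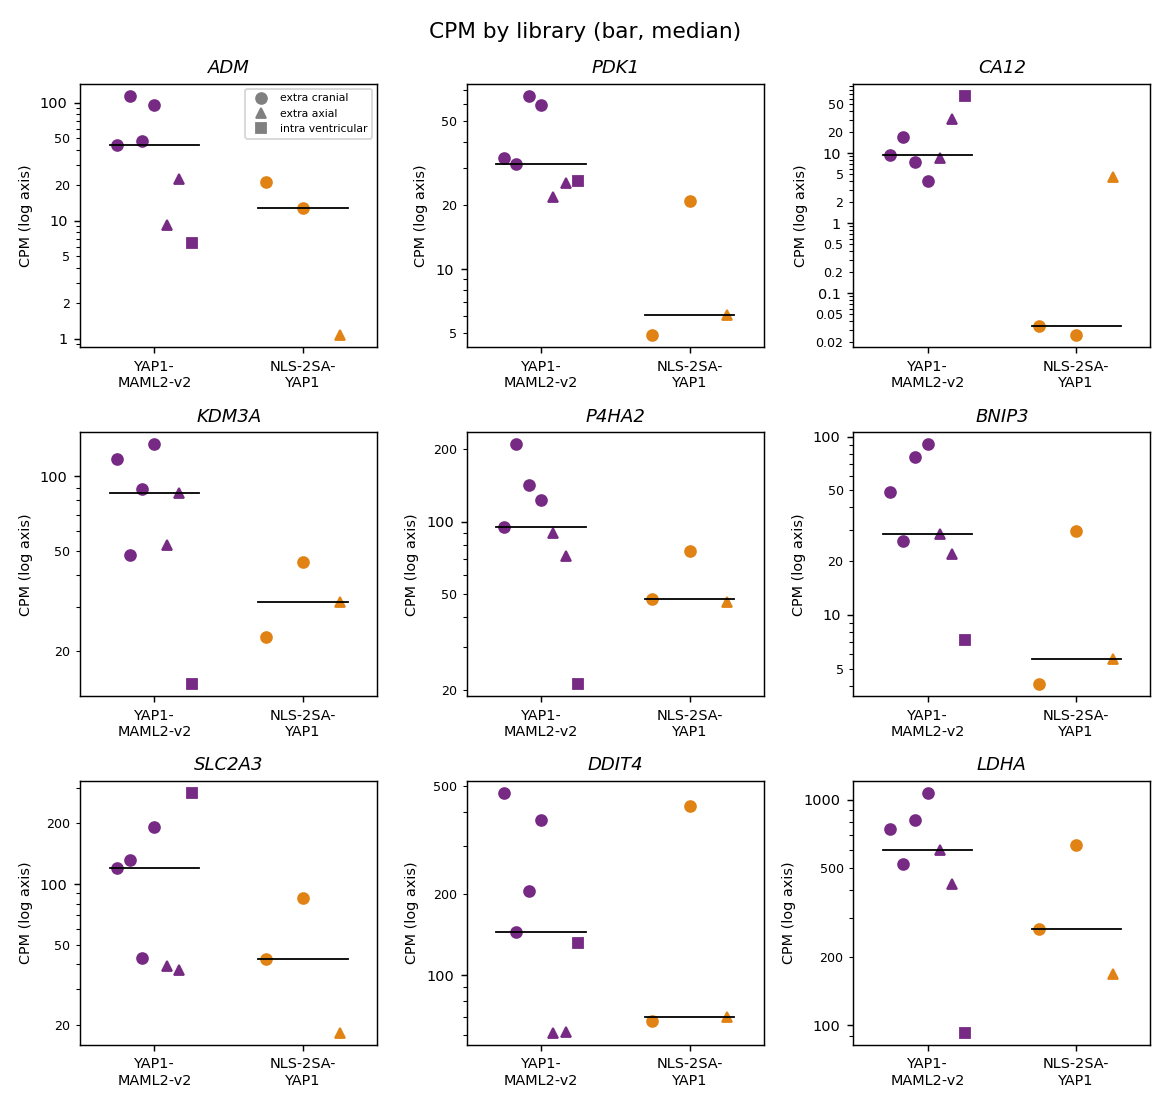
CPM by library (points, log axis, bar at the median) of 9 members in YAP1-MAML2-v2 and NLS-2SA-YAP1 tumors, with the region as the symbol. PDK1 is the only one of the 9 whose constructs do not overlap, and the intra ventricular library (square) is the lowest point for KDM3A, P4HA2 and LDHA.

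Among the other HIF targets, 15 of 17 had a negative log2 fold change. ADM, the vasodilator peptide adrenomedullin, had the smallest edgeR p of all members. NLS-2SA-YAP1 tumors held 1.08, 21.3 and 12.8 CPM in replicate order. YAP1-MAML2-v2 tumors ranged from 6.52 to 115 CPM (median 43.7), so the groups overlapped. Within each region they did not. Among extra cranial tumors there were 12.8 and 21.3 against 43.7 to 115 CPM, an order found in 10.4% of all genes. Among extra axial ones there was 1.08 against 9.3 and 22.8 CPM, an order found in 32.4% of all genes. The fitted difference was -2.63 in log2 (SE 0.59, adjusted p = 0.161 in edgeR and 0.000192 in DESeq2), while the exact permutation test gave an adjusted p of 0.475.

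The carbonic anhydrases, membrane enzymes that take part in pH control, were at a deposited value of 1 in both extra cranial NLS-2SA-YAP1 libraries. CA12 had 4.64 CPM in NLS-2SA-YAP1 replicate 1 and ranged over 4.02 to 66.5 CPM (median 9.55) under YAP1-MAML2-v2. CA9 had 0.813 CPM in that replicate and ranged over 0.387 to 6.7 CPM under YAP1-MAML2-v2. No fold is read for either gene, since values of 0 and 1 in the deposited data may not be reads. They enter DESeq2's calls of both genes and the permutation p of CA12. STC1 and STC2, secreted stanniocalcins, had 10.5 to 22.5 and 14.5 to 40.4 CPM in NLS-2SA-YAP1 tumors, against 0.565 to 80.9 and 0.0471 to 23.3 CPM. STC2 was the member with the largest positive fold change (1.07, SE 0.99, edgeR adjusted p = 0.7).

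BNIP3 and BNIP3L, mitochondrial membrane proteins that promote mitophagy, both had negative fold changes. BNIP3 had 5.62, 4.1 and 29.6 CPM against 7.27 to 90.3 CPM (log2 fold change -1.95, SE 0.64, edgeR adjusted p = 0.274). BNIP3L, made at a higher level, had 80.2, 113 and 256 CPM against 199 to 638 CPM (-1.23, SE 0.44). Replicates 1 and 2 of NLS-2SA-YAP1 were below every YAP1-MAML2-v2 library for both genes, and replicate 3 was not.

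P4HA2 and P4HA1 are alternative catalytic subunits of collagen prolyl hydroxylase. P4HA2 had 46.4, 47.6 and 75.6 CPM under NLS-2SA-YAP1 against 21.1 to 210 CPM (median 95.3) under YAP1-MAML2-v2. This gave -1.07 in log2 (SE 0.34, adjusted p = 0.268 in edgeR). P4HA1 had 96.8, 98.7 and 169 CPM against 37.8 to 184 CPM (-0.19, SE 0.40). The ratio of P4HA1 to P4HA2 was 2.07 to 2.24 in the 3 NLS-2SA-YAP1 libraries and 0.373 to 2.06 in the 7 others. This ratio was singled out after its values were seen, so it has no test.

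KDM3A, a histone demethylase, had 31.2, 22.6 and 45.1 CPM against 14.7 to 134 CPM (median 85.6). Its groups overlapped only through the intra ventricular library, since the next lowest YAP1-MAML2-v2 tumor had 48.5 CPM (log2 fold change -1.39, SE 0.42, edgeR adjusted p = 0.243). NDRG1 overlapped widely, with 950, 1281 and 1389 CPM against 352 to 2303 CPM (-0.14, SE 0.48). DDIT4, an inhibitor of mTOR signaling, had -0.12 (SE 0.56) and MXI1, a MYC antagonist, -1.12 (SE 0.57). INSIG2, which restrains sterol synthesis, had 81.9, 72.2 and 78.8 CPM against 20.7 to 178 CPM (0.37, SE 0.60). ANKRD37 had -1.58 (SE 0.83), ANKZF1 -0.48 (SE 0.40) and VLDLR, a lipoprotein receptor, -0.20 (SE 0.47).

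Between the sets, the median log2 fold change was -0.85 in glycolytic and -1.07 in other members, 0.22 apart. The gap was -0.10 in limma-voom, and -0.09 without genes at 0 or 1 in one library and over 100 in another. Its sign was therefore not stable. The gap between the set means per library was -0.04 ± 0.37 (SD, n = 3) in NLS-2SA-YAP1 and 0.02 ± 0.71 (SD, n = 7) in YAP1-MAML2-v2 tumors. At an unadjusted p under 0.05 there were 7 of 18 glycolytic and 7 of 17 other members, CA9 and CA12 among the latter.

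The NLS-2SA-YAP1 libraries differed in how many members were low. Replicate 2 lay below every YAP1-MAML2-v2 library in 17 members (11.1% of all genes), replicate 1 in 11 (15.5%) and replicate 3 in 3 (10.6%), which were PDK1, CA9 and CA12. Without replicate 2 the median log2 fold change was -0.55 and 6 members had an unadjusted p under 0.05 (7.76% of all genes), and without replicate 1 that count was 9 (9.28%). Leaving out replicate 2 together with YAP1-MAML2-v2 replicate 5 gave a median of -0.44, with 27 members lower and 4 at an unadjusted p under 0.05 (7.19% of all genes). Of the meningeal fibroblast markers, 12 of 16 had a positive log2 fold change in NLS-2SA-YAP1 tumors (median 0.61), and their part in the result was not tested. Muscle genes were high in replicates 2 and 3 but not in replicate 1. With the muscle list as a covariate the median was -0.69, with 27 members lower and 5 at an unadjusted p under 0.05, against 9.75% of all genes. Among extra cranial tumors alone, NLS-2SA-YAP1 was below all YAP1-MAML2-v2 libraries in 13 members (10.4% of all genes) and above all in STC2 (11.8%). Among extra axial tumors, the NLS-2SA-YAP1 library was below both others in 21 members (32.4%) and above both in 5 (36%).

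**Figure D3:**
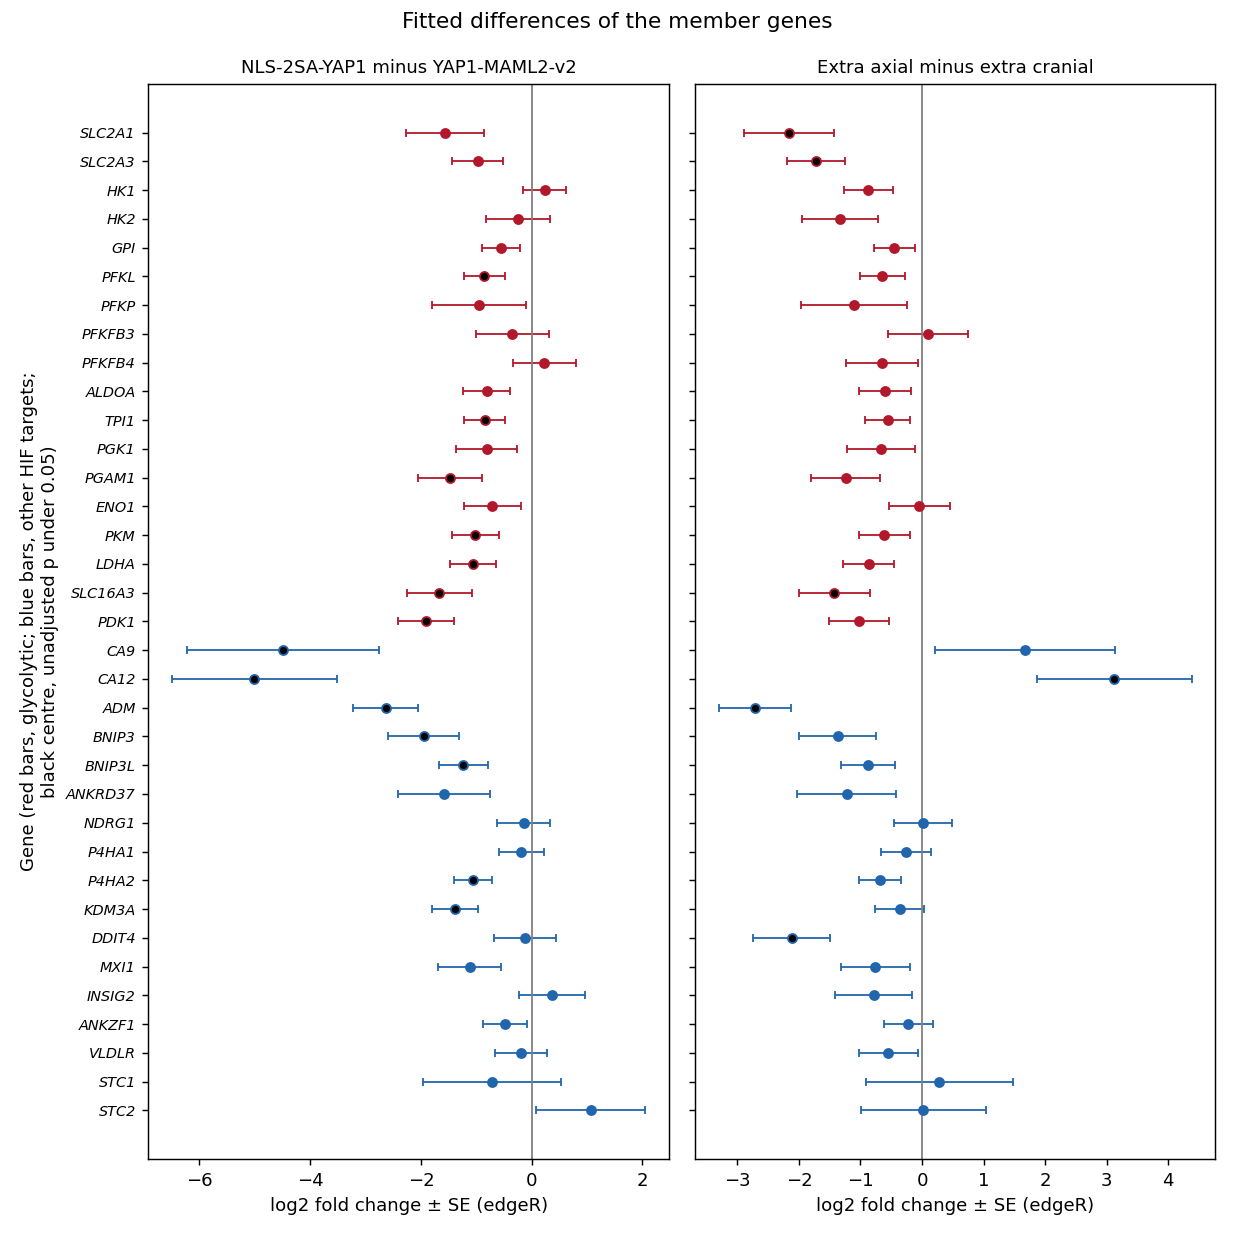
Log2 fold change ± SE (edgeR) of each member between constructs (left) and regions (right), with red bars for glycolytic members, blue bars for other HIF targets and a black centre for an unadjusted p under 0.05. Fold changes are below 0 in 31 members on the left and 29 on the right, and those of CA9 and CA12 depend on values of 1.

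The second comparison set extra axial tumors (n = 3) against extra cranial ones (n = 6), with construct as a term. Members were mostly lower in extra axial tumors, with a negative log2 fold change in 29 of 35 (50.6% of all genes) and a median of -0.67 against -0.01 for all genes. No gene at all passed edgeR's test over all genes (0%), while 6 members had an unadjusted p under 0.05, 5 lower and CA12 higher, against 3.01% of all genes. Values of 1 in both extra cranial NLS-2SA-YAP1 libraries enter the p of CA12. Within YAP1-MAML2-v2 its regions overlapped, with 8.41 and 30.6 CPM against 4.02 to 17.2 CPM. Without genes at 0 or 1 in one library and over 100 in another, 8 members had such a p, all lower (3.09% of all genes). DESeq2 called ADM (lower), against 0.23% of genes (0.208% lower), and limma-voom called 0 genes.

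The members with the smallest p were ADM, SLC2A3, DDIT4 and SLC2A1. SLC2A3 had 18.3, 37.3 and 39 CPM in the extra axial tumors and 42.4 to 193 CPM (median 103) in the extra cranial ones. It was the only member whose regions did not overlap, a pattern of 0.89% of all genes, 0.503% with extra axial tumors lower (log2 fold change -1.72, SE 0.47, edgeR adjusted p = 1). DDIT4 had 61.2, 61.6 and 69.8 CPM against 67.9 to 469 CPM (median 289), and overlapped only through NLS-2SA-YAP1 replicate 2 (-2.12, SE 0.62). SLC2A1 had 11.8, 15.4 and 22 CPM against 4.78 to 203 CPM (median 91.3), again with the same replicate as the exception (-2.16, SE 0.73). ADM had 1.08, 9.3 and 22.8 CPM against 12.8 to 115 CPM (median 45.5; -2.71, SE 0.59, DESeq2 adjusted p = 0.000663).

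Glycolytic members were lower in extra axial tumors in 17 of 18, with PFKFB3 the exception, and other members in 12 of 17. Medians were -0.77 and -0.54, a gap of -0.22 whose sign was not stable. It was 0.12 without YAP1-MAML2-v2 replicate 2 and 0.02 with the step enzymes and LDHA alone as glycolytic. Within YAP1-MAML2-v2, both extra axial libraries lay below all 4 extra cranial ones in 11 of 18 glycolytic members and 3 of 17 others (5.23% of all genes), and above them in 0 members (5%). The 11 were SLC2A1, SLC2A3, HK1, GPI, PFKL, ALDOA, TPI1, PGAM1, PKM, SLC16A3 and PDK1, and the 3 were ADM, P4HA2 and DDIT4. Within NLS-2SA-YAP1, the extra axial tumor lay below both extra cranial ones in 10 of 35 members (38.2% of all genes). These were 2 of 18 glycolytic and 8 of 17 other members. In 16 of 18 glycolytic members it lay between them, a pattern whose share over all genes was not computed. Those 2 extra cranial tumors were far apart, with glycolytic means of -1.30 and 0.31.

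Whether the region difference itself differed between constructs was tested as an interaction in the 9 libraries outside the ventricle. No member passed (edgeR adjusted p of at least 0.658), while 1 gene of 13487 (0.00741%) did. At an unadjusted p under 0.05 there was only CA12, against 7.14% of all genes (3.55% negative, 3.59% positive), and its values of 1 enter that test. The interaction term was negative in 14 of 35 members, against 51.2% of all genes. Other gene lists also leaned one way by region, with no gene of them past edgeR's adjusted threshold. All 14 cell cycle genes had a positive log2 fold change in extra axial tumors (median 1.19), but all 14 had a negative interaction term (median -1.79). Their sum was 823 and 256 CPM in the extra axial YAP1-MAML2-v2 tumors, against 57.4 to 345 CPM in the extra cranial ones. In NLS-2SA-YAP1 it was 241 CPM in the extra axial tumor and 312 and 275 CPM in the extra cranial ones. All 10 tested skeletal muscle markers had a negative log2 fold change in extra axial tumors (median -4.02). So did 10 of 11 macrophage and microglia genes (median -0.47) and 8 of 10 endothelial genes (median -0.39). Apart from the muscle covariate, the part of these lists in the result was not tested. With the muscle list as a covariate the region median of the members was -0.84, with 30 members lower. The members at an unadjusted p under 0.05 between regions numbered 11 when NLS-2SA-YAP1 replicate 2 was left out (2.99% of all genes) and 3 when its replicate 3 was (2.03%).

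**Figure D4:**
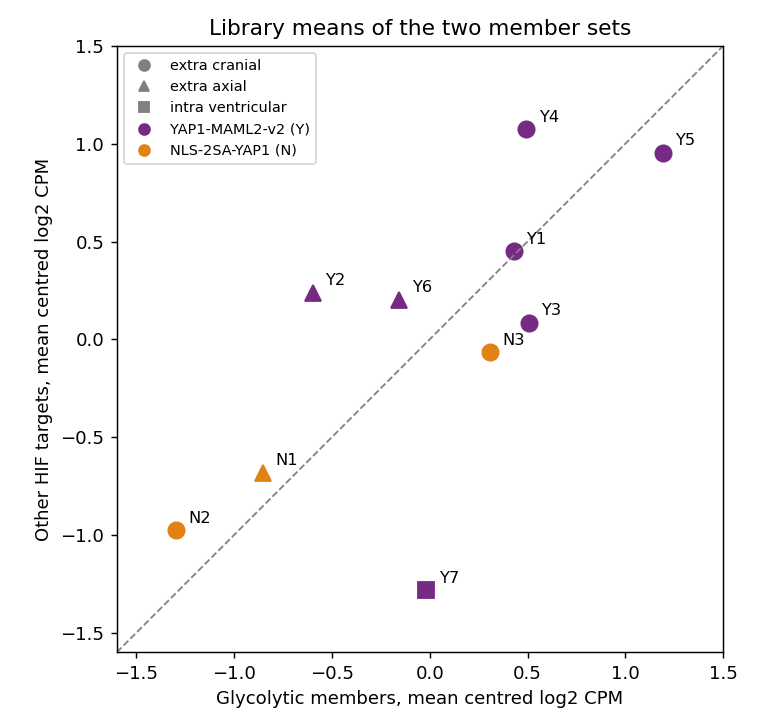
Mean centred log2 CPM of the 18 glycolytic members (horizontal) and the 17 other HIF targets (vertical) in each library, with the dashed line where both are equal. The intra ventricular library (Y7) lies farthest from the line, at -0.02 and -1.28, and Y2 next, at -0.60 and 0.24.

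The sets came apart in the intra ventricular tumor, a single library without a replicate. Its glycolytic mean was -0.02, rank 6 of 10, and its mean of the other targets was -1.28, rank 10 of 10, a gap of 1.26. In the other 9 libraries the gap lay between -0.84 and 0.42. This library had the lowest CPM in 7 of 17 other targets (ANKRD37, NDRG1, P4HA1, P4HA2, KDM3A, VLDLR and STC2) and in 1 of 18 glycolytic members, LDHA. Over all genes it was the lowest in 18% and the highest in 19.7%. It was among the lowest 3 libraries in 12 other targets and 7 glycolytic members, against 37.4% of all genes.

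The glycolytic genes of this tumor went both ways. SLC2A3 (282 CPM), HK2 (82.6 CPM) and PFKFB4 (15.4 CPM) were at their highest of the 10 libraries, as was CA12 (66.5 CPM) among the other targets. SLC2A1, at 135 CPM, was the next to highest. LDHA, at 92.6 CPM, lay below the 169 to 1069 CPM of the 9 other libraries, and PGK1, TPI1, GPI and SLC16A3 were the next to lowest, with 113, 266, 168 and 5.55 CPM. The ratio of LDHA to SLC2A3 was 0.328 there and 3.95 to 18.9 elsewhere, a ratio chosen after its values were seen. In this library 10 of 11 tested macrophage and microglia genes and 7 of 10 endothelial genes were also at their highest of the 10 libraries. So were 4 of 5 tested neuron genes and 2 of 4 tested choroid plexus and ependyma genes. The neuron list averaged 4.74 in log2 CPM there and -1.23 to 1.23 elsewhere, although its summed level, 503 CPM, lay within the 383 to 1078 CPM of the others. The choroid plexus and ependyma list averaged 1.56 there and at most 0.10 elsewhere. Its summed level, 227 CPM, also lay within the 26.3 to 437 CPM of the others. The part of these markers in the result was not tested.

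Lists of related genes gave the wider pathway, and none of their members passed edgeR's test over all genes between constructs or regions. Further HIF targets were lower in NLS-2SA-YAP1 tumors in 19 of 21 tested genes, with a median log2 fold change of -1.14 and 8 at an unadjusted p under 0.05, all lower (13.1% of all genes, 7.61% lower). Between regions, 5 of the list had such a p (3.01% of all genes). The construct group includes CITED2, a competitor of HIF for its coactivator, at 33.9 ± 17.8 CPM (SD) in 3 tumors and 170 ± 77.9 CPM (SD) in 7 (-2.36, SE 0.53). HILPDA, a lipid droplet protein, had 1.88 ± 1.01 against 15.8 ± 12.8 CPM (-3.16, SE 0.82), and the transferrin receptor TFRC 46.9 ± 20 against 199 ± 166 CPM (-2.29, SE 0.62). The list held 18 of 21 genes lower in extra axial tumors, with a median of -0.87.

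Other glycolytic isoforms and steps had a median log2 fold change of -0.48 between regions, with 10 of 11 lower in extra axial tumors. Between constructs their median was -0.26 with 7 of 11 lower, and BPGM, which makes bisphosphoglycerate, was the 1 gene at an unadjusted p under 0.05 (68 ± 14.7 against 32.8 ± 16.3 CPM, 1.24, SE 0.42). GAPDH had -0.37 (SE 0.40). A list on pyruvate entry into mitochondria pooled the pyruvate carrier, pyruvate dehydrogenase subunits, kinases that inhibit that enzyme and phosphatases that activate it. In NLS-2SA-YAP1 tumors 9 of its 12 genes were higher (median 0.33), which gives no single direction for pyruvate use. An unadjusted p under 0.05 was held by 5 of them, 3 higher and 2 lower (13.1% of all genes). MPC2 of the carrier had 180 ± 52 against 84 ± 33.7 CPM (1.08, SE 0.41). The pyruvate dehydrogenase phosphatase genes PDP1 (-1.02, SE 0.38) and PDP2 (-0.87, SE 0.34) were lower. Pentose phosphate and glycogen genes had a median of -0.29, with 11 of 14 lower. TALDO1, transaldolase, went the other way (0.62, SE 0.27), and UGP2 (-0.89, SE 0.33) and GYS1 (-0.71, SE 0.29), which serve glycogen synthesis, were the 2 with an unadjusted p under 0.05 between regions. Of 8 HIF factors and regulators 7 were lower between constructs, with EPAS1, the HIF2 alpha subunit, at 283 ± 160 against 640 ± 177 CPM (-1.17, SE 0.40, edgeR adjusted p = 0.288).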

How the data were processed

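RNA-seq of 10 tumors was used. The submitters' processing notes name HTSeq and mm10, without versions. Aligner, annotation, strand setting and any later step were not given in the sources used here. Values the authors deposited are whole numbers under human-style symbols, treated here as estimated counts and used without further rounding. In 10505 genes whose median exceeds 200, there are 251 values of 0, 219 of 1 and 21 of 2, unlike plain counts. Members hold 4 values of 0 or 1, all of CA9 and CA12 in NLS-2SA-YAP1 replicates 2 and 3. Reads of near-identical genes, such as pseudogenes of glycolytic enzymes, could have been split, so those levels are uncertain.

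filterByExpr (minimum 10, by construct) kept 13707 genes, and TMM scaled the libraries. Construct and region were fitted together over all 10 libraries in edgeR 4.0.16 under R 4.3.3 (quasi-likelihood, robust), where the intra ventricular library has its own term. Benjamini-Hochberg adjustment ran over all genes. log2 CPM used a prior count of 2. The exact permutation test used log2 CPM over libraries without region, adjusted over all genes tested in place of the named members only. Alternatives were DESeq2 1.42.0, limma-voom with sample quality weights (limma 3.58.1), other scaling, filters, covariates and left-out libraries. Steps were tested on simulated counts. Positions and exon lengths follow GENCODE M21 (mm10) and promoters RefSeq. The members and lists were chosen with earlier results of these data known. Named genes are the members, with per-library values for those of smallest p in each comparison (6 and 4), those not overlapping and the highest per kilobase of each role, and up to 3 genes of each related list with an unadjusted p under 0.05. GAPDH was named after its values were seen.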

Additional observations from a re-analysis of the deposited data

Results flagged for a closer look

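Of 70 groups of member values examined for 1 library far from the rest, 5 held one, and chance gives about 1 in 20. LDHA was 92.6 CPM in the intra ventricular library, against 421 CPM in the next YAP1-MAML2-v2 tumor and 1070 in the highest. NLS-2SA-YAP1 replicate 2 was far below the other extra cranial tumors for 3 glycolytic genes. It had 4.78 CPM of SLC2A1 (next 51.9, highest 203), 59.6 CPM of PFKL (next 168, highest 274) and 3.65 CPM of SLC16A3 (next 28.3, highest 70.6). STC2 was 0.152 CPM in YAP1-MAML2-v2 replicate 3, against 9.1 CPM in the next extra cranial tumor and 40.4 CPM in the highest.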

How the results depend on the processing

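The count of all genes past the threshold between constructs, 2 in edgeR, was 685 in DESeq2, 95 in limma-voom, 4 with no filter on low values, 1 without the genes at 0 or 1 in one library and over 100 in another, 0 with the muscle covariate, 4 in extra cranial libraries and 1 with the lowest and the highest library of the members left out together, a pair chosen after seeing the data. Members past it, 0 in edgeR, were 6 in DESeq2. Members at an unadjusted p under 0.05, 14 in edgeR (13.1% of all genes), were 5 with the muscle covariate (9.75%), 7 without the region term (12.9%), 7 in extra cranial libraries (9.6%) and 4 without that pair (7.19%). Between regions, DESeq2 called 31 genes and 1 member, with 13 members at an unadjusted p under 0.05 (4.97% of all genes) against 6 in edgeR (3.01%), and leaving out that pair gave 10 (2.41%). The interaction count of 1 was 0 in limma-voom.

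Leaving out 1 library at a time gave 0 to 2 genes past the threshold between constructs, 6 to 16 members at an unadjusted p under 0.05, 28 to 33 members below 0 and medians of -1.24 to -0.55. Between regions it gave 0 to 1 genes, 3 to 11 members, 28 to 32 below 0 and medians of -0.84 to -0.49. The interaction gave 0 to 3 genes and could not be fitted without NLS-2SA-YAP1 replicate 1. Glycolytic minus other medians ran from -0.04 to 0.36 and from -0.41 to 0.12. The sign was kept in every such fit for 25 members between constructs and 28 between regions.

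Replicates of equal number deviated together with correlations of 0.167, 0.337 and -0.072, so the numbers were not taken as pairs. With the replicate block on replicates 1 to 3, 2 genes passed, and 8 members had an unadjusted p under 0.05 (11.1% of all genes). The limits are 3 NLS-2SA-YAP1 libraries, 1 intra ventricular library, unknown depth and values of 0 or 1 whose origin is not known.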
